A study of Mus musculus with 12 samples.

Results

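Xpc, Ddb2, Ercc5, Polh, Polk, Rrm2b, Triap1 and Aen are known as target genes of the transcription factor p53, Ddb2 chiefly in human cells. They act in DNA repair or decide cell fate after DNA damage. These 8 genes, of 21887 protein-coding genes, were taken as a named set, and a peak was assigned to a gene when its midpoint lay inside the gene or within 5 kb of either end. The data are chromatin immunoprecipitation sequencing of back skin from mice aged 8 to 10 weeks under a protocol of 5 Gy of ionizing radiation. The 12 samples form 6 groups of 2. Each of 3 combinations, H3K4me3 with wild-type (WT) animals, p53 with WT animals and p53 with K17KO animals, has samples labelled T0 and samples labelled 6 h. The labels give the same radiation treatment for all groups, T0 included, and do not write out the name of the K17KO genotype. Processed data are 3 peak lists, and none names a library, a time or a control. The p53 list without a genotype in its name is called WT here, which is an inference. No value therefore has a replicate error, times cannot be compared, and all results are descriptions without a test.

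When DNA is damaged, p53 is stabilised, binds its response elements in chromatin and switches on genes for cell cycle arrest, cell death and repair. A response element is made of a pair of p53 half-sites of 10 bases each. In nucleotide excision repair, which removes bulky lesions such as those made by ultraviolet light, XPC and DDB2 recognise the damage and the nuclease encoded by Ercc5 (XPG) cuts on its 3′ side. Polh and Polk encode translesion polymerases, which copy past lesions that stall the replicative polymerases. Rrm2b encodes p53R2, a ribonucleotide reductase subunit that supplies deoxynucleotides for repair outside S phase. Triap1 encodes a small mitochondrial protein that restrains apoptosis, and Aen an apoptosis-enhancing nuclease. Trimethylated lysine 4 of histone H3 (H3K4me3) marks the starts of active genes.

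Across the set, no p53 peak was assigned and H3K4me3 peaks were common. The WT p53 list held 2909 peaks and assigned one to 0 of the 8 genes, against 6.75% of all protein-coding genes. The K17KO p53 list held 1101 peaks and assigned one to 0 of 8, against 3.79%. At those shares 0.540 and 0.303 of 8 genes would hold a peak, so neither count stands apart from the background. The H3K4me3 list held 5464 peaks and assigned one to 7 of 8, against 23.9%, with Polk the gene left without one. Each of the 7 had exactly 1 assigned peak, as did 82.4% of all genes with an H3K4me3 peak.

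**Figure D1:**
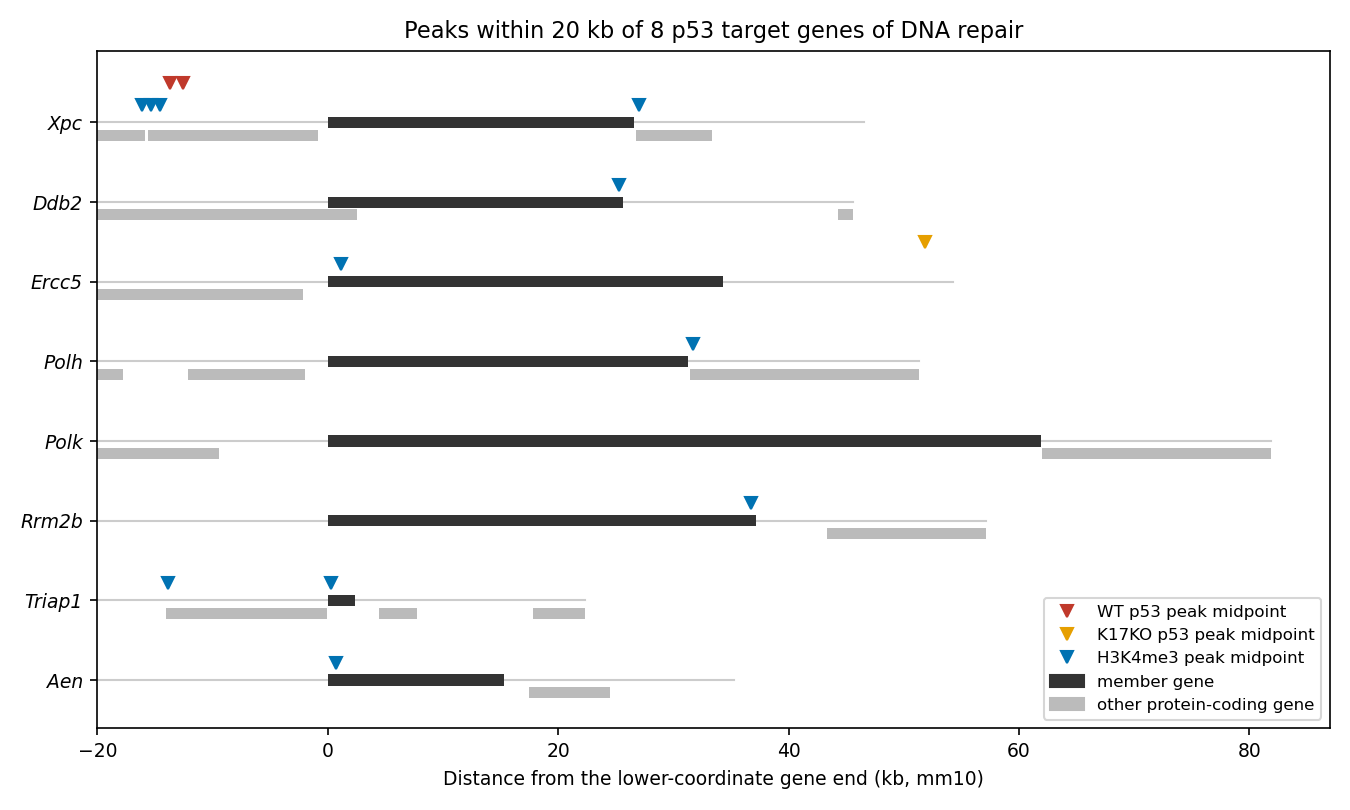
Peak midpoints (triangles) of the 3 lists along each of the 8 genes (dark bars) and up to 20 kb on either side, drawn in kb from the gene end with the lower coordinate; other protein-coding genes are grey. H3K4me3 midpoints sit near an end of 7 genes, Polk has no triangle, and the p53 midpoints shown lie 12.55 kb or more outside Xpc and 17.6 kb outside Ercc5.

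Promoter sequence was examined for the members with a table entry, and is shown for those with an H3K4me3 peak near the start, since these are the places where the mark and a possible p53 element could meet. RefSeq (GRCm38.p6, which shares coordinates with mm10) gave windows of 300 bases, 250 before the transcription start and 50 after it, for 5 of the 8 genes: Ercc5, Polh, Polk, Triap1 and Aen. Capitals mark exact matches to the p53 half-site consensus, which reads the same on both strands, or its most usual core, CATG. The windows are at chr1:44147494-44147793 (plus strand) for Ercc5, chr17:46202592-46202891 (minus strand) for Polh, chr5:115340981-115341280 (plus strand) for Triap1, and chr7:78895808-78896107 (plus strand) for the second Aen start.
Ercc5: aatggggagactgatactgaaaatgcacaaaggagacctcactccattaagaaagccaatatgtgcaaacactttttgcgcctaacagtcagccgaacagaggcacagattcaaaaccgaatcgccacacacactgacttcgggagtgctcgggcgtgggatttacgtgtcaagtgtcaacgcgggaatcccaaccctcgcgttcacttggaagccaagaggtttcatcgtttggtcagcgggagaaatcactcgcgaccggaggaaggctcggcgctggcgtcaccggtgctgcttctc
Polh: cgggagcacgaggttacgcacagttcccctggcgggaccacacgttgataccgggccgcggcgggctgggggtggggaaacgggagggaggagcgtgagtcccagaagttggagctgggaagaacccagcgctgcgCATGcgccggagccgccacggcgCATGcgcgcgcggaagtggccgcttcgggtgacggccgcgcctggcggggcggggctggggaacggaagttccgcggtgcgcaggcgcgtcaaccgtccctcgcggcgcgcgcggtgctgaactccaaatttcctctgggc
Triap1: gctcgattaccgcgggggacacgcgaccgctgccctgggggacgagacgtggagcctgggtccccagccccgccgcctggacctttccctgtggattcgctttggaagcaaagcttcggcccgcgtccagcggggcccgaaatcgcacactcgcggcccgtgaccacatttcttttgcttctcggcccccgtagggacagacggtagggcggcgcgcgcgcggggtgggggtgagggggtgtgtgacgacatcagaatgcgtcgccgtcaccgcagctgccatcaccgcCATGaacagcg
Aen: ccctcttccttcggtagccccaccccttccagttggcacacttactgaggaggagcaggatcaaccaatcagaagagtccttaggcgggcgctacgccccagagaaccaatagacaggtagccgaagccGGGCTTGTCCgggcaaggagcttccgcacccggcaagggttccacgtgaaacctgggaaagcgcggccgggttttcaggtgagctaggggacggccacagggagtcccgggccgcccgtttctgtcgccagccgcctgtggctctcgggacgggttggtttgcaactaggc

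An exact half-site was present in the Aen window, GGGCTTGTCC, at positions −121 to −112 relative to this start. The same letters are 10 to 19 bases after the other Aen start listed. The 10 bases that follow, GGGCAAGGAG, differ from the half-site consensus at 3 positions. Exact half-sites occur in 8.36% of all 32851 promoter windows. The windows of Ercc5, Polh and Triap1 held none, although the core CATG occurred at 2 places in Polh and at 1 in Triap1. This core is found in 61.1% of windows. Polk has 2 listed starts, and the inner one carried a half-site, GAACTAGCCT, at positions −231 to −222. A match in letters does not show a bound site, and the nearest listed p53 peak to Aen or Polk was 163 kb or more away.

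All 4 printed windows were rich in CpG dinucleotides. The ratio of observed to expected CpG was 1.11 in Polh, 1.03 in Triap1, 0.985 in Ercc5 and 0.698 in Aen, against a median of 0.384 over all windows. Polk did not stand apart by this measure at its outer start, where the ratio was 0.744 with 25 CpG, more than in 81.6% of windows. The inner Polk start had a ratio of 0.271. Polk thus had a CpG-rich outer promoter, as the 4 printed windows were, but no listed H3K4me3 peak. Only 23.9% of all protein-coding genes had one, and the control behind the list was not stated. A missing peak therefore does not show a missing mark.

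The damage recognition genes come first. Xpc (chromosome 6, 91489305 to 91515888) had its H3K4me3 peak from 91516209 to 91516447, 440 bp outside the gene. That midpoint lies inside Lsm3, an RNA-processing gene that begins 147 bp from Xpc, 293 bp after the Lsm3 start. The peak had a fold enrichment, as the authors deposited it, of 1.52, the ratio of fragments at its summit to the caller's background after 1 is added to each. The added count lowers the fold where fragments are few, as in the p53 lists. It rested on 151 fragments over a background of 99.1. Because the genes are so close, the peak cannot be given to Xpc rather than Lsm3.

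Xpc was also the member nearest to a WT p53 peak. That peak, on chromosome 6 from 91476558 to 91476953, lay 12.55 kb outside Xpc and inside Tmem43, a gene for a nuclear envelope protein. Its fold was 7.88, above 99.8% of the WT list, with 17 fragments over a background of 1.29. A weaker WT p53 peak of 4.13-fold, with 8 fragments over 1.18, lay 13.7 kb from Xpc in the same gene. Of all protein-coding genes, 8.82% had a WT p53 peak nearer than Xpc had. H3K4me3 peaks of 2.35-fold and 1.71-fold also lay in Tmem43, 14.5 and 15.3 kb from Xpc, and another, of 1.38-fold, lay in Chchd4. The nearest K17KO p53 peak to Xpc was 204 kb away at 3.62-fold.

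Ddb2, for which p53 control is known in human cells and is weak or absent in mouse, spans chromosome 2 from 91211545 to 91237132 and overlaps Acp2 at its lower end. Its H3K4me3 peak, from 91236676 to 91236913, lay within the gene itself, 338 bp from its higher-coordinate end. The fold was 1.58, with 167 fragments over 105.6. The nearest WT p53 peak was 68.99 kb away, inside 1110051M20Rik, at 3.86-fold with 7 fragments. In the K17KO list the nearest was 409 kb away, inside Zfp408, at 3.94-fold with 15 fragments. Ddb2 and Xpc thus shared a modest H3K4me3 enrichment and differed in whether the peak fell within the member itself.

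The incision nuclease gene Ercc5 (chromosome 1, 44146948 to 44181260) carried the weakest assigned H3K4me3 peak by fold, at 1.37. It ran from 44147940 to 44148328 inside the gene, with its midpoint 1186 bp from the gene end and 390 bp after the start whose promoter is printed above. The peak held 209 fragments over 152 of background, and its −log10 q was 1.99. Ercc5 had the nearest K17KO p53 peak of the set, 17.6 kb beyond its higher-coordinate end and outside protein-coding genes, at 4.47-fold with 12 fragments over 1.91. Of all protein-coding genes, 5.56% had a nearer K17KO peak. The nearest WT p53 peak lay 530 kb away, at 3.01-fold with 5 fragments, the smallest number in that list.

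Among the translesion polymerases, Polh and Polk differed. Polh, the polymerase that copies accurately past ultraviolet-induced dimers, spans chromosome 17 from 46171355 to 46202641. Its H3K4me3 peak, from 46202896 to 46203204, lay 409 bp upstream of the Polh start and 239 bp after the start of Xpo5, the exporter of microRNA precursors. Polh and Xpo5 lie 170 bp apart and are read in opposite directions, so this peak too may belong to either gene. It had 260 fragments, more than 98.4% of the list, but the background was 187 and the fold 1.39.

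Polk, which extends past bulky adducts, is the longest of the 8 genes at 61.9 kb (chromosome 13, 96480687 to 96542579) and lies 130 bp from Cert1. No H3K4me3 peak was listed within 529 kb, and the nearest lay inside Fam169a at 2.002-fold. Of all protein-coding genes, 84.9% had a nearer H3K4me3 peak. The WT p53 list had its nearest peak to Polk at 163 kb (3.67-fold, 6 fragments) and the K17KO list at 916 kb (4.63-fold, 8 fragments). For Polh the distances were 1506 kb in WT, the longest in that list for the set, and 745 kb in K17KO.

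Rrm2b (chromosome 15, 37923952 to 37961119) had an H3K4me3 peak from 37960436 to 37960896, within the gene itself, 453 bp from its higher-coordinate end. Its fold was 1.45, with 166 fragments over 114. No other protein-coding gene lay within 5 kb of Rrm2b, the only member for which this was so. The nearest p53 peaks were 299 kb away in WT, inside Ncald at 3.20-fold with 7 fragments, and 1180 kb away in K17KO, at 6.38-fold with 13 fragments.

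Triap1 and Aen, the genes that bear on cell survival, had the strongest H3K4me3 peaks of the set. Triap1 is the shortest member, at 2.32 kb (chromosome 5, 115341231 to 115343553), and lies 70 bp from Gatc. Its peak, from 115341371 to 115341668, was centred 288 bp after the start, at 1.65-fold with 206 fragments over 124. The midpoint lay inside Triap1, but with Gatc so close the peak may also belong to Gatc. The nearest WT p53 peak lay 55.1 kb away inside Msi1, which encodes an RNA-binding protein of progenitor cells, at 4.81-fold with 10 fragments over 1.29. The nearest K17KO p53 peak was 1364 kb away at 5.21-fold.

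Aen (chromosome 7, 78895927 to 78911209) had the highest fold, 1.79, with 229 fragments over 127. Its peak ran from 78895991 to 78897239, and at 1249 bp it was wider than 99.7% of the list. It covered 117 bases of the second promoter window and ran from 67 bp before that start to 1181 bp after it. Among the 5 members with a promoter window, it was the only peak to overlap one. Xpc, Ddb2 and Rrm2b had no window to compare. The printed half-site lay just outside the peak, on the upstream side. The nearest p53 peaks were 434 kb away in WT, inside Abhd2 at 3.86-fold, and 701 kb away in K17KO, inside Rhcg at 3.73-fold.

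**Figure D2:**
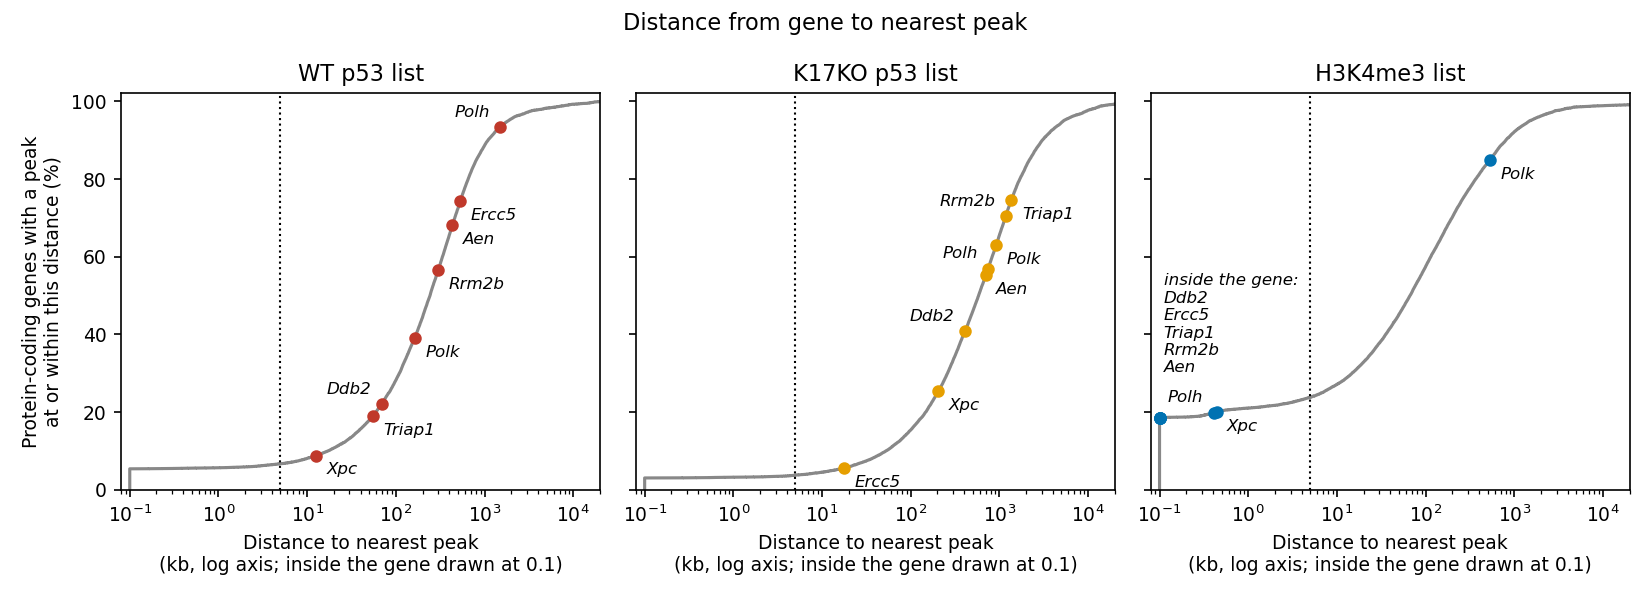
Distance from each gene to its nearest peak (kb, log axis) against the percentage of all 21887 protein-coding genes with a peak at or within that distance (grey curve), by list; points are the 8 members and the dotted line is 5 kb. In both p53 lists the members are spread along the curve from Xpc at 12.55 kb or Ercc5 at 17.6 kb upward, while in the H3K4me3 list 7 lie left of the line and Polk lies at 529 kb.

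In distance to a p53 peak, the members ranged widely. The median distance to a WT p53 peak was 231 kb for the members and 242 kb for all protein-coding genes, with 4 of 8 members below the latter. With the WT list limited to a q-value of at most 0.1, which leaves 1754 of its peaks, these medians were 625 and 403 kb, with 3 of 8 members below. In the K17KO list the medians were 723 and 581 kb, with 3 of 8 members below. Xpc, Triap1 and Ddb2 were nearest to a WT peak. At the stricter limit the distance of Ddb2 rose from 68.99 to 1028 kb and Polk, at 227 kb, took its place, while Xpc and Triap1 kept theirs. The distances of Ercc5 and Rrm2b rose to 1166 and 714 kb. Ercc5, Xpc and Ddb2 were nearest to a K17KO peak. All 1101 peaks of that list already met this limit, so no distance in it could change. The p53 lists are of unequal length, and their lowest −log10 q was 0.376 in WT and 1.04 in K17KO. Distances and order were therefore not compared between them. Between the most distant assigned peak, at 440 bp, and the nearest unassigned peak of any list, at 12.55 kb, no member had a peak.

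The depth of the p53 lists limits what an absent peak means. The fewest fragments under a listed peak were 5 in the WT p53 list and 6 in the K17KO list. Over all peaks of these lists the median background was 0.992 and 1.39 fragments. Neither list held a site with fewer fragments, and over a higher background a site would need more of them to be listed. No binding was detected at the 8 genes, and binding too weak to be listed would be missed. In whole skin, fewer cells with a bound or marked gene and less binding or mark per cell cannot be told apart.

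**Figure D3:**
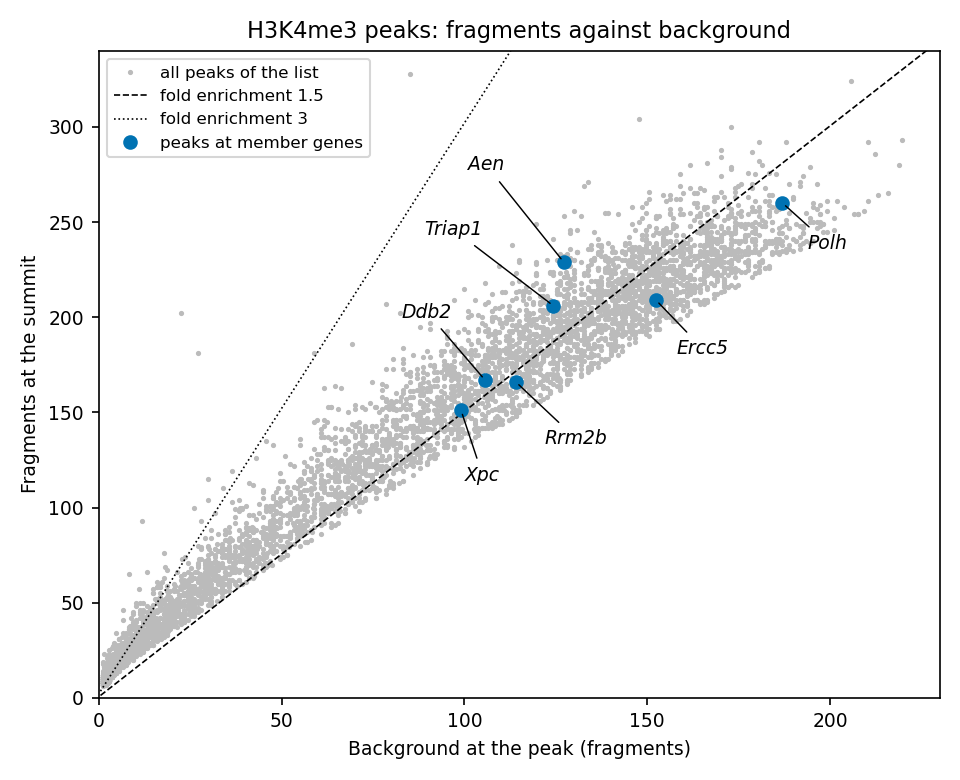
Fragments at the summit against background fragments for peaks of the H3K4me3 list (grey) and the 7 peaks assigned to the members (blue), with lines of equal fold enrichment; peaks beyond the axes are not drawn. The member peaks hold 151 to 260 fragments over backgrounds of 99.1 to 187 and lie close to the line of 1.5-fold.

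The 7 H3K4me3 peaks resembled each other in depth. Their folds ran from 1.37 to 1.79 with a median of 1.52, and 6 of 7 were below the list's median of 1.66, Aen being the exception. All 7 were above the list's median in fragments and in background. They were centred 288 to 1186 bp from the nearer gene end, with a median of 440 bp, against 556 bp for all genes with an H3K4me3 peak. In 2 of 7 the peak lay in a neighbouring gene and outside the member, as it did for 19.6% of all such genes. Where the strand is known from RefSeq, peaks lay downstream of the start of Ercc5, Triap1 and Aen and upstream of the start of Polh. What control stood behind this list was not stated in any source used here, so a peak may mark a difference from that control rather than presence of the mark.

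Further genes of the same pathways were counted by the same rule. The shares over all protein-coding genes were 23.9% for H3K4me3, 6.75% for WT p53 and 3.79% for K17KO p53. Among 30 other nucleotide excision repair genes, 14 had an H3K4me3 peak (46.7%), 0 a WT p53 peak and 1 a K17KO p53 peak. High H3K4me3 folds were found at Xrcc1, a scaffold of single-strand break repair (2.05), and at Mnat1 (1.91) and Ercc2 (1.85), both parts of the repair and transcription factor TFIIH. The peak of Xrcc1 lay in the neighbouring gene Pinlyp, and that of Mnat1 was also inside Six4. The K17KO p53 peak was counted for Ddb1, the partner of DDB2. It lay 4604 bp outside Ddb1 and inside Vwce, at 4.47-fold with 12 fragments.

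Among 13 other translesion synthesis genes, 5 had an H3K4me3 peak (38.5%), 0 a WT p53 peak and 1 a K17KO p53 peak. The highest H3K4me3 folds were at Pold1, the catalytic subunit of polymerase delta (2.02, inside the neighbouring gene Nr1h2), Mad2l2 (1.80, also inside Draxin), Rev1 (1.72) and Usp1 (1.65). The K17KO p53 peak lay inside Pold1, 7423 bp from its nearer end, at 3.47-fold with 13 fragments. Among 12 genes of deoxynucleotide supply, 0 had a peak in either p53 list. An H3K4me3 peak was assigned to 3 (25.0%), close to the 23.9% of all protein-coding genes. The 3 were Rrm2, the S-phase counterpart of Rrm2b (1.76), Nme1 (1.46) and Dck (1.36).

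**Figure D4:**
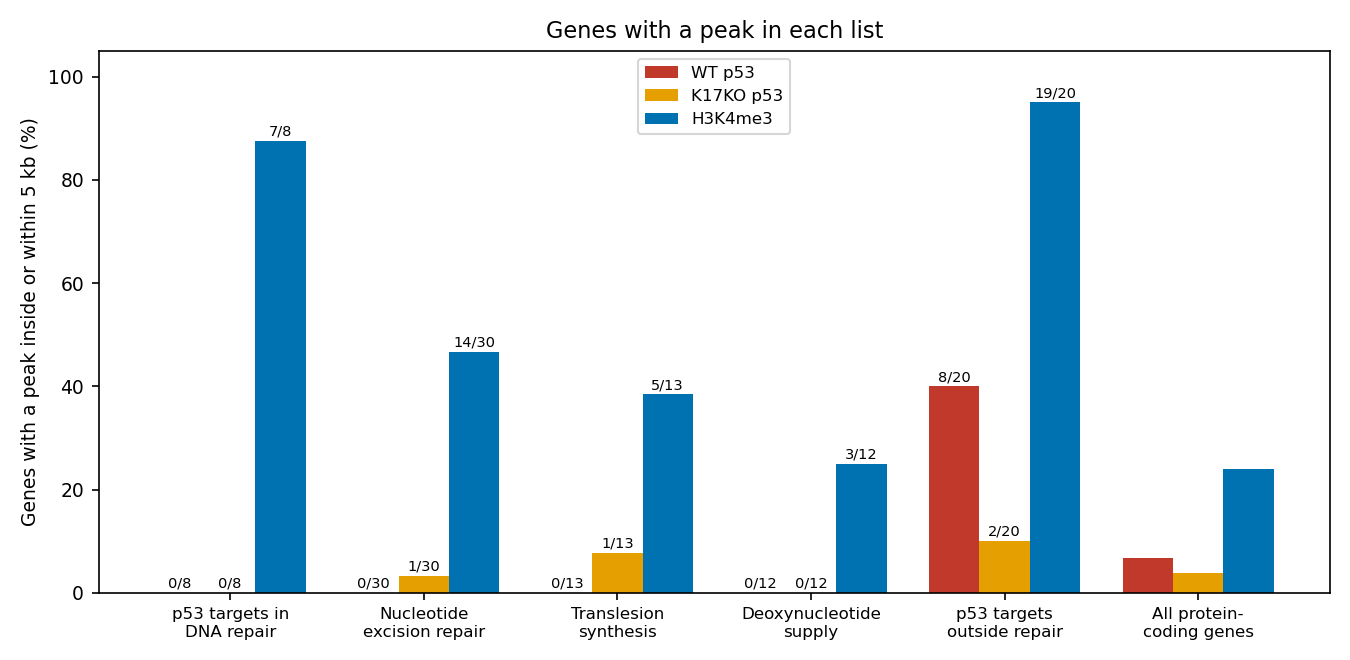
Percentage of genes with a peak inside or within 5 kb, by gene list and peak list, with counts above the bars; the last group is all protein-coding genes. The WT p53 bar is at 0 for all 4 repair lists and reaches 40.0% (8 of 20) for p53 targets outside repair, and the H3K4me3 bar is at 87.5% for the members.

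For reference, 20 p53 targets outside repair were counted, a list chosen with results of these data known. In the WT p53 list 8 of 20 (40.0%) had a peak, with the highest folds at Bax (6.70), an effector of apoptosis, Cdkn1a (6.57), the p21 inhibitor of the cell cycle, Phlda3 (6.49), a repressor of Akt, and Bbc3 (6.03), which encodes Puma. The K17KO list had 2 of 20, Rps27l at 6.53-fold and Bax at 4.66-fold. The shares over all protein-coding genes were 6.75% in the WT list and 3.79% in the K17KO list. Because these lists differ in length and in lowest −log10 q, their counts were not compared. The same WT list thus held peaks at reference targets and none at the 8 members, and this difference was not tested.

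H3K4me3 peaks were listed at 19 of the 20 reference targets (95%) and 7 of the 8 members (87.5%). Their folds differed in level. The median of the highest peak per gene was 2.17 for the reference targets, 1.52 for the members and 1.62 for all genes with a peak. At 11 of the 19 reference targets it exceeded 2, at 0 of the 7 members, and at 23.6% of all genes with a peak. The highest were at Mdm2, the ubiquitin ligase that degrades p53 (3.40), Eda2r (3.10), the death receptor gene Fas (2.82) and Tigar (2.75, inside the neighbouring gene Fgf23). The background was lower at the reference targets, with a median of 64.5 fragments against 124 at the members and 107 over all genes with a peak. More of the reference targets had several peaks, since 9 of 19 had a single one against 7 of 7 members, and taking the highest of several raises the fold. The part of background and peak number in the difference of folds was not tested.

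**Figure D5:**
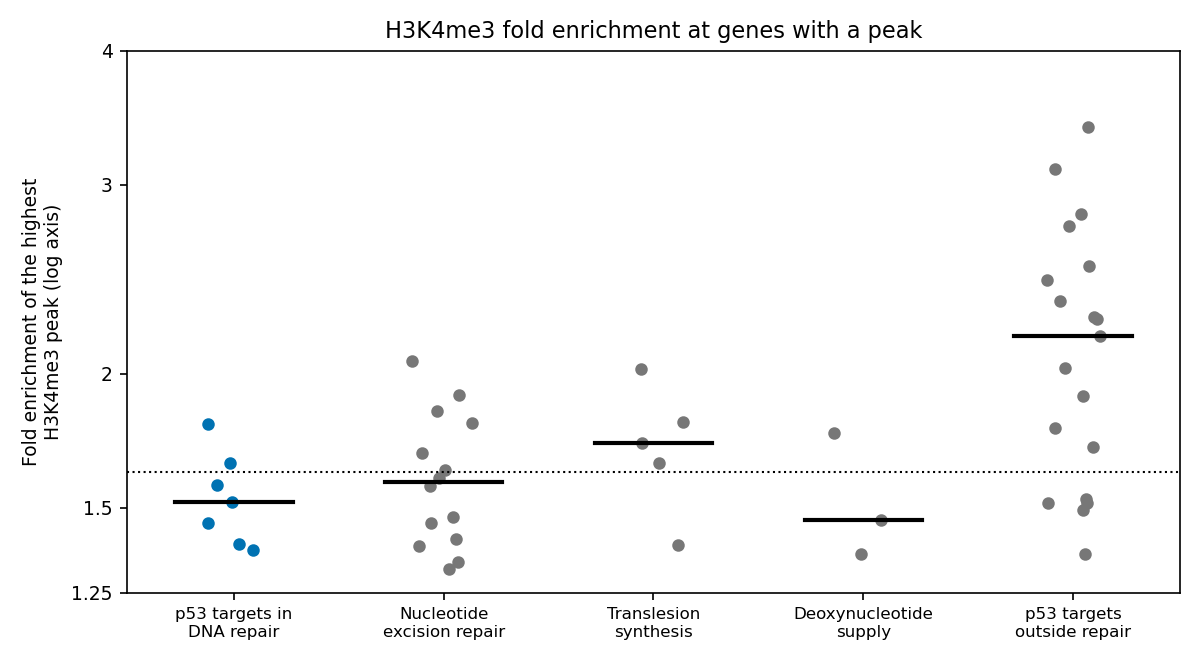
Fold enrichment (log axis) of the highest assigned H3K4me3 peak of each gene that had one, by gene list; horizontal bars are medians and the dotted line is the median over all genes with a peak (1.62). The 7 members lie between 1.37 and 1.79, and the reference p53 targets reach 3.40.

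As a check of the labelled tissue, the H3K4me3 list held a peak for 2 of 4 keratinocyte genes, Krt1 (4.84-fold) and Krt10 (4.28-fold), and not for Krt5 or Krt14. It held a peak for 0 of 4 genes of other organs (Alb, Ins2, Myh6 and Gfap). Among all protein-coding genes, 23.9% had one. With only 4 genes in each group, these counts cannot tell skin from other organs. Few fragments lay behind the fold of Krt10, 9 against a background of 1.34. The midpoint of that peak was 1748 bp away from Krt10 and in no protein-coding gene.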

How the data were processed

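Back skin was assayed by chromatin immunoprecipitation sequencing with antibodies against p53 and H3K4me3 in 12 samples. Bowtie2 version 2.2.5, SAMtools version 1.7, MACS2 version 2.1.2 and mm10 are named, without roles, per the submitters' processing notes. Each deposited list has 10 columns. The authors deposited per peak a fold (a ratio), a −log10 p and −log10 q, a score (the −log10 p times 10, decimals dropped) and the summit position. Which libraries, control and threshold gave each list was not stated in any source used here.

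From the fold and −log10 p, the fragments at each summit and the background were recovered as whole fragments for 100.0% of the peaks, with a tolerance of 0.001 on the −log10 p scale. Genes came from the RefSeq table of GRCm38.p6, chromosomes 1 to 19, X and Y, which gives no strand. Strand and starts came from the RefSeq promoter table. Peaks were assigned by midpoint with Python 3.11.15, pandas 2.3.3 and SciPy 1.17.1. The code was checked with simulated peaks placed inside the 5 kb window. Their recovery follows from the rule, so this does not test which gene a real peak belongs to.

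The members and gene lists were chosen with earlier results of these data known. All members are named with each assigned and nearest peak. Of the other lists, genes with a p53 peak (up to 4 by fold) and the 4 of highest H3K4me3 fold are named, except that 1 gene is counted but not reported by name here. Alternatives were other windows, q-value limits, the upper 50% by fold, overlap, the summit and leaving out peaks in neighbouring genes. Genotypes were not tested against each other, since each is 1 list.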

Additional observations from a re-analysis of the deposited data

How the results depend on the processing

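Of 30 alternative counts of members with a peak, 27 stayed within 1.5 times of the reported value and 3 did not. For the p53 lists the reported count was 0, and staying meant 0 again. Alternatives that narrow the window or remove peaks could give only 0 there, so they do not test those counts. Only the wider window, the overlap and the summit could change them. With a window of 20 kb the WT p53 list assigned a peak to 1 of 8 members (Xpc, against 10.8% of all genes) and the K17KO p53 list to 1 of 8 (Ercc5, against 5.94%). In the upper 50% of the H3K4me3 list by fold, 1 of 8 members kept a peak (Aen, against 10.8%), because the other 6 folds lie below the list's median. Among the counts that stayed, the H3K4me3 count was 5 inside genes alone and 5 without peaks in neighbouring genes (Xpc and Polh dropped in both), and 6 with q limited to 0.01 (Ercc5 dropped). With q limited to 0.1, the median distance from a member to a WT p53 peak rose to 624.6 kb. Of 24 nearest distances, 6 changed, all in the WT list. The K17KO list lost none of its 1101 peaks at this limit, so its distances could not change. No list can be split by library, so leaving out a replicate could not be done. No paired analysis was possible because the lists name no replicate. Depth limits the p53 lists, whose median peaks rest on 7 fragments in WT and 11 in K17KO.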
